A study of Mus musculus with 9 samples.

Results

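The p53 growth arrest group comprised 10 listed genes: Trp53 itself, its inhibitor Mdm2, and the targets Ccng1, Btg2, Gadd45a, Trp53inp1, Zmat3, Phlda3, Bbc3 and Eda2r. Members were taken by symbol, each through the probe set that carried that 1 symbol and had the highest mean over the 9 arrays. A probe set was found for 9 of the 10 genes, out of 19661 genes measured. No probe set was paired with Trp53 in the annotation used, so the p53 transcript was not analysed here and all values below are for its regulators and targets. Trp53 encodes p53, a transcription factor that is held at a low level by the ubiquitin ligase Mdm2 and accumulates after DNA damage and other stress. It then switches on genes that slow the cell cycle, repair DNA or start apoptosis, among them Mdm2, which closes a negative feedback loop. In muscle precursors, several of the same growth arrest genes are also controlled by growth and differentiation signals that do not pass through p53.

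RNA was measured in mouse myoblasts of Balb/c background taken from skeletal muscle, cultured in F10 medium to which 20% fetal bovine serum and bFGF (4 ng/ml), a growth factor that keeps myoblasts dividing, were added. There were 3 arrays each of cells overexpressing the paired-box factor Pax3, cells overexpressing its paralogue Pax7, and control cells with an empty vector. The labels give neither the promoter of the constructs, nor whether a group was 1 clone, nor whether its 3 samples were separate cultures, so p-values measure the spread between these samples, which may be technical. Values are log2 intensities as deposited, with array medians of 6.397 to 6.477. Pax3 was 37.2-fold above control in Pax3 arrays and 1.99-fold above it in Pax7 arrays (limma adjusted p = 2.37e-08 for the latter). Pax7 was 3.40-fold above control in Pax7 arrays and 5.02-fold below it in Pax3 arrays. The myoblast markers were present in all groups, with Myod1 at 12.50, 12.18 and 12.62 in Pax3, Pax7 and control arrays. Xist averaged 11.96, 11.72 and 4.77 in these groups and the Y-linked gene Eif2s3y 3.12, 3.08 and 8.78. A change made by either factor and a difference in sex chromosomes between the cell populations therefore cannot be told apart in any comparison with control, while between Pax7 and Pax3 arrays Eif2s3y, Uty and Kdm5d differed by at most 0.08 log2 units and Xist by -0.24 (limma adjusted p = 0.0262). In RNA of whole cultures, fewer cells expressing a gene and less RNA per cell cannot be told apart either.

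The 9 genes did not move as 1 block. In Pax3 arrays Btg2, Trp53inp1, Eda2r and Phlda3 fell, Gadd45a and Zmat3 rose, and Mdm2, Ccng1 and Bbc3 did not pass the test. In Pax7 arrays the same 4 genes fell together with Mdm2, and again Gadd45a and Zmat3 rose. A gene passed when its adjusted p in limma's test over all genes (Benjamini-Hochberg) was under 0.05. That was so for 6 of 9 in the Pax3 comparison, 2 higher and 4 lower, where 39.6% of all genes passed (19.8% higher and 19.7% lower). For Pax7 against control it was 7 of 9, 2 higher and 5 lower, where 43.2% of all genes passed (21.6% higher and 21.5% lower). The arrays of the groups did not overlap in 6 of the 9 genes for Pax3 and in 7 for Pax7, where 45.1% and 55.5% of all genes did not overlap. Both comparisons use the same 3 control arrays, so they are not independent. The median absolute log2 fold change of the 9 was 0.24 in Pax3 and 0.35 in Pax7 arrays, beside 0.11 and 0.13 over all genes.

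**Figure D1:**
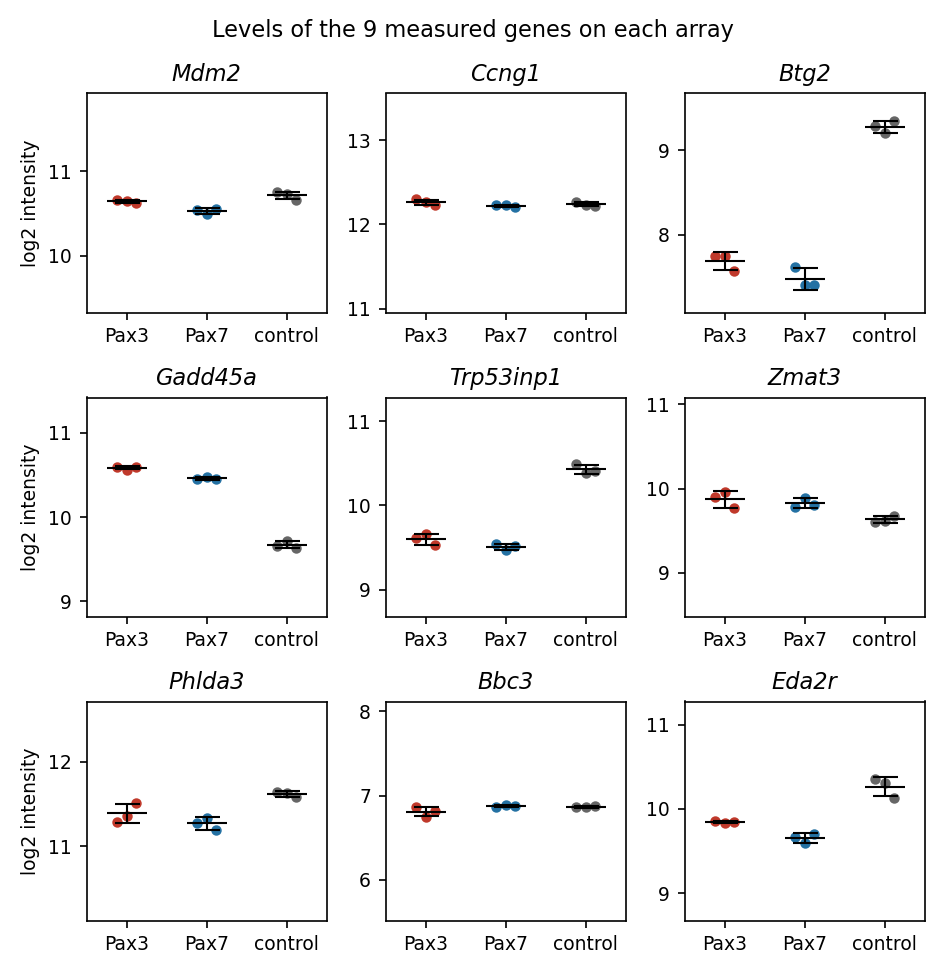
Log2 intensity of the 9 measured genes on each array (points), with group means and SD (bars), for Pax3, Pax7 and control; each panel has its own scale, all with at least the same span. Btg2 and Trp53inp1 lie lower and Gadd45a higher in all Pax3 and Pax7 arrays than in control arrays, while Ccng1 and Bbc3 lie level.

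Mdm2, the ligase that marks p53 for degradation and is itself one of its most direct targets, changed little. Its log2 intensity was 10.66, 10.64 and 10.62 in Pax3 arrays, 10.54, 10.49 and 10.55 in Pax7 arrays and 10.75, 10.73 and 10.66 in control arrays. The Pax7 arrays lay below all others, and the highest Pax3 array met the lowest control array. Mdm2 fell by 0.18 on the log2 scale in Pax7 arrays (SE 0.0419, n = 3 per group, 1.13-fold, limma adjusted p = 0.00421). In Pax3 arrays the log2 fold change was -0.07 with a 95% confidence interval of -0.16 to 0.02 (limma adjusted p = 0.229).

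Ccng1 encodes cyclin G1, which brings a phosphatase to Mdm2 and is another direct p53 target. It read 12.30, 12.26 and 12.23 in Pax3 arrays, 12.23, 12.23 and 12.21 in Pax7 arrays and 12.27, 12.23 and 12.22 in control arrays. The groups overlapped in both comparisons with control. The interval of its log2 fold change ran from -0.06 to 0.11 in Pax3 and from -0.10 to 0.07 in Pax7 arrays (limma adjusted p = 0.687 and 0.759). The level was close to the top of the range on these arrays, which ended at 13.2, and whether signal is compressed there was not tested.

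Btg2 changed most of the 9. It encodes an antiproliferative protein of the BTG and Tob family, which slows entry into S phase and speeds the shortening of mRNA tails. It stood at 7.75, 7.75 and 7.57 in Pax3 arrays, 7.62, 7.40 and 7.40 in Pax7 arrays and 9.28, 9.20 and 9.35 in control arrays. Every Pax3 and Pax7 array was more than 1 log2 unit below the lowest control array. Btg2 was 3.01-fold lower in Pax3 arrays (log2 fold change -1.59 ± 0.074, SE, n = 3 per group, limma adjusted p = 2.2e-08). In Pax7 arrays it was 3.50-fold lower (-1.81 ± 0.074, limma adjusted p = 5.05e-09).

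Gadd45a moved the other way. Its product binds stress kinases and the mitotic cyclin-dependent kinase and holds damaged cells before mitosis. Its levels were 10.59, 10.56 and 10.60 in Pax3 arrays, 10.45, 10.48 and 10.45 in Pax7 arrays and 9.66, 9.72 and 9.64 in control arrays. The groups did not overlap, and Pax3 arrays were also above all Pax7 arrays. Gadd45a rose 1.88-fold in Pax3 arrays (0.91 ± 0.0402, SE, n = 3 per group, limma adjusted p = 1.44e-08) and 1.73-fold in Pax7 arrays (0.79 ± 0.0402, limma adjusted p = 3.1e-08).

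Zmat3, a zinc finger protein that binds RNA, was the other gene that rose, by far less. It measured 9.90, 9.96 and 9.77 in Pax3 arrays, 9.79, 9.89 and 9.80 in Pax7 arrays and 9.60, 9.62 and 9.68 in control arrays. Both groups lay above all control arrays, and the log2 fold change was 0.24 ± 0.056 in Pax3 arrays (SE, n = 3 per group, limma adjusted p = 0.00512). In Pax7 arrays it was 0.20 ± 0.056 (limma adjusted p = 0.0153), a call that ended without control replicate 1 (limma adjusted p = 0.0552) or without Pax7 replicate 2 (limma adjusted p = 0.0676).

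Among the members tied to cell death and survival (Trp53inp1, Eda2r, Phlda3 and Bbc3), Trp53inp1 had the largest fall. Its nuclear product helps kinases to phosphorylate p53 and also takes part in autophagy. It gave 9.61, 9.65 and 9.52 in Pax3 arrays, 9.54, 9.47 and 9.52 in Pax7 arrays and 10.49, 10.38 and 10.41 in control arrays. No array of either group reached the control range. Trp53inp1 was 1.78-fold lower in Pax3 arrays (-0.83 ± 0.0487, SE, n = 3 per group, limma adjusted p = 1.42e-07) and 1.89-fold lower in Pax7 arrays (-0.92 ± 0.0487, limma adjusted p = 4.18e-08).

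Eda2r is an X-linked receptor of the tumour necrosis factor family that binds an isoform of ectodysplasin. It read 9.86, 9.83 and 9.85 in Pax3 arrays, 9.67, 9.59 and 9.70 in Pax7 arrays and 10.35, 10.30 and 10.13 in control arrays. The 3 groups were separate from each other, with the Pax7 arrays lowest. Eda2r was 1.34-fold lower in Pax3 arrays (-0.42 ± 0.0584, SE, n = 3 per group, limma adjusted p = 0.000143) and 1.53-fold lower in Pax7 arrays (-0.61 ± 0.0584, limma adjusted p = 6.12e-06). Of 708 X-linked genes other than Xist, 107 fell in Pax3 arrays (15.1%) and 121 in Pax7 arrays (17.1%), against 20.0% and 21.8% of 18864 autosomal genes. The median log2 fold change of these X-linked genes was 0.02 in Pax3 and 0.03 in Pax7 arrays.

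Phlda3 encodes a small lipid-binding protein that competes with the survival kinase Akt for the membrane. It showed 11.29, 11.36 and 11.52 in Pax3 arrays, 11.28, 11.34 and 11.19 in Pax7 arrays and 11.64, 11.64 and 11.58 in control arrays. All Pax3 and Pax7 arrays were below all control arrays, with Pax3 replicate 3 close to them. Phlda3 fell by 0.23 on the log2 scale in Pax3 arrays (SE 0.0621, n = 3 per group, limma adjusted p = 0.0123) and by 0.35 in Pax7 arrays (limma adjusted p = 0.000779). The Pax3 call ended without Pax3 replicate 1 (limma adjusted p = 0.0533).

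Bbc3 encodes Puma, a pro-death member of the Bcl2 family and one of the main apoptotic targets of p53. It lay at 6.86, 6.75 and 6.82 in Pax3 arrays, 6.86, 6.88 and 6.88 in Pax7 arrays and 6.86, 6.86 and 6.88 in control arrays. The groups overlapped, and the interval of the log2 fold change was -0.15 to 0.03 in Pax3 and -0.08 to 0.10 in Pax7 arrays (limma adjusted p = 0.331 and 0.895). Its level was near the median gene mean of 6.88, and several arrays shared exactly the same value. Such shared values occurred in 45.4% of probe sets, and summarising probes by medians can produce them, so an SD close to 0 is no sign of extra precision.

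**Figure D2:**
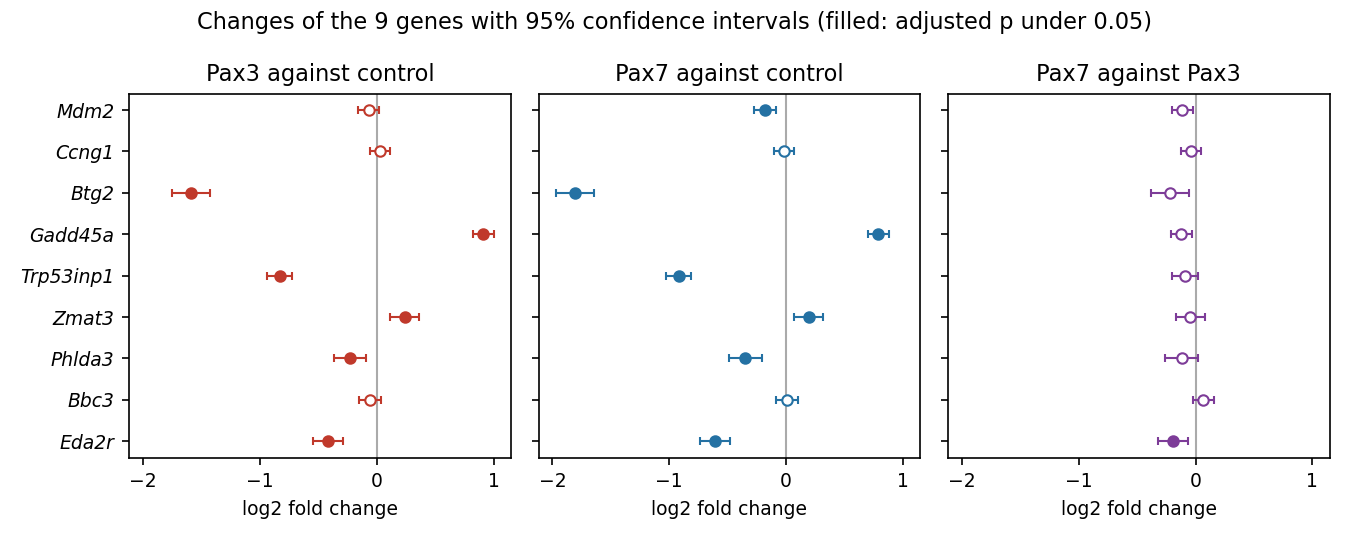
Log2 fold changes of the 9 genes with 95% confidence intervals in the 3 comparisons, 3 arrays per group; filled points passed the adjusted p of 0.05. Btg2 is lowest at -1.59 and -1.81 and Gadd45a highest at 0.91 and 0.79 against control, and all intervals of Pax7 against Pax3 lie within 0.4 log2 units of 0.

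The comparison of Pax7 with Pax3 arrays showed small differences. Eda2r alone of the 9 passed, at -0.19 ± 0.0584 (SE, n = 3 per group, limma adjusted p = 0.0492), where 16.9% of all genes passed (8.33% higher and 8.54% lower). That call ended in 7 of the 9 fits that left out 1 array: any of the 3 Pax3 arrays, any of the 3 Pax7 arrays, or control replicate 2 (limma adjusted p between 0.0144 and 0.179 over all 9 fits). It also ended with the replicate numbers as a block (limma adjusted p = 0.0599). Btg2 had a larger change of -0.22 but did not pass with all arrays (limma adjusted p = 0.0759). With 1 array left out, Btg2 failed in 7 of the 9 fits and passed in the others (limma adjusted p between 0.0226 and 0.243). The groups did not overlap in 4 of the 9 genes, Mdm2, Ccng1, Gadd45a and Eda2r, where 29.4% of all genes did not overlap. Of the 9, 8 had a log2 fold change below 0, where 47.3% of all genes did, and Bbc3 was the exception at 0.07. The intervals of the genes that did not pass included -0.38 to -0.05 for Btg2, -0.21 to -0.03 for Gadd45a, -0.20 to 0.02 for Trp53inp1 and -0.20 to -0.02 for Mdm2. Over the 9 genes no interval reached below -0.38 or above 0.16.

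Promoter sequence was examined for the members, since p53 binds DNA at pairs of half-sites. RefSeq promoter windows (GRCm38.p6, 250 bases before to 50 after the transcript start) matched 8 of the 10 genes. A p53 half-site was counted only as an exact match to RRRCWWGYYY (R a purine, W A or T, Y a pyrimidine). A single match was present in the windows of Trp53, Mdm2, Ccng1 and Gadd45a, and in 8.36% of 32851 windows of all genes. No exact match was found in those of Btg2, Phlda3, Bbc3 or Eda2r. Half-sites with a mismatch were not searched for, so these windows may still hold p53 sites. The half-site is a palindrome, so searching 1 strand covers both. The windows shown belong to Btg2 and Gadd45a, which changed most among the measured genes with a window, and to the feedback genes Mdm2 and Ccng1. Trp53inp1, which changed more than Gadd45a in Pax7 arrays, had no window. They are written 5′ to 3′ on the gene's strand with the half-site in capitals. All 4 lie on the minus strand: Btg2 at chr1:134079106-134079405, Gadd45a at chr6:67037358-67037657, Mdm2 at chr10:117710709-117711008 and Ccng1 at chr11:40755237-40755536.
Btg2: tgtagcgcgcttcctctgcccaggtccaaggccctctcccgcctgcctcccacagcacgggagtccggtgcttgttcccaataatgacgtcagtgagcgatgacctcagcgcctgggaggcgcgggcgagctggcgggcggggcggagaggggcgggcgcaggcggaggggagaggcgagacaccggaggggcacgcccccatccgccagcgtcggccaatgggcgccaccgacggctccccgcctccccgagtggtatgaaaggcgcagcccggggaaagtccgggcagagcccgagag
Gadd45a: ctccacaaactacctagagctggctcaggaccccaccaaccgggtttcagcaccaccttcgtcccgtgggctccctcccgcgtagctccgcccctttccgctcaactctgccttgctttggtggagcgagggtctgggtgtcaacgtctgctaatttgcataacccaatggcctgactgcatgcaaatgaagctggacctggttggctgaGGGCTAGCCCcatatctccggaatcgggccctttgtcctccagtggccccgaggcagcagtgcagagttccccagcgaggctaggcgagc
Mdm2: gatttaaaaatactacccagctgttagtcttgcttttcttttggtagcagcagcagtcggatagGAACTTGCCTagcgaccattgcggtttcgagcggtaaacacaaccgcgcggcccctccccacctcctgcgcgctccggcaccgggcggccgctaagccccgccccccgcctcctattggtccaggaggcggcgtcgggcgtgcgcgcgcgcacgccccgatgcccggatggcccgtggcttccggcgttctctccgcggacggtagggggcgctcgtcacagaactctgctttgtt
Ccng1: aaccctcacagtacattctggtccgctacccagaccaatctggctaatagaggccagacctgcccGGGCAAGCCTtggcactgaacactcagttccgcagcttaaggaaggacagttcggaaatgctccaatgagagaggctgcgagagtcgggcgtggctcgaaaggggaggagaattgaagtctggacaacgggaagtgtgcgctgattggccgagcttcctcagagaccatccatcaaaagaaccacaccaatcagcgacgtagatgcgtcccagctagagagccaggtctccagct

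The half-site began 40 bases before the start in Gadd45a, 186 in Mdm2 and 185 in Ccng1. Of these genes only Gadd45a changed by more than 0.2 log2 units against control. Among the genes whose windows held no exact match, Btg2, Eda2r and Phlda3 changed by more than 0.2 and Bbc3 did not. A link between half-sites and change was not tested. The core ATTA of sites bound by homeodomains such as those of Pax3 and Pax7 was present, on either strand, in windows of 4 of the 8 genes (Btg2, Ccng1, Eda2r and Gadd45a) and in 58.0% of all windows. The E-box CANNTG, bound by myogenic factors and also a palindrome, was in windows of 5 of the 8 genes and in 72.3% of all windows. These matches describe the letters of the windows only. Half-sites with a mismatch, and sites further away such as the known p53 sites in the first intron of Mdm2, were not searched.

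Relatives of these genes changed in both directions. Gadd45b and Gadd45g, the paralogues of Gadd45a that respond to cytokine and growth signals, both fell while Gadd45a rose. Gadd45b averaged 9.48 ± 0.0041 in Pax3, 9.28 ± 0.0948 in Pax7 and 10.43 ± 0.0173 in control arrays (SD, n = 3 each), with log2 fold changes of -0.94 and -1.15. Gadd45g averaged 10.52 ± 0.0803 in Pax3, 10.12 ± 0.0057 in Pax7 and 11.17 ± 0.0464 in control arrays, with changes of -0.65 and -1.05. Limma adjusted p was at most 1.03e-06 in these comparisons, and no Pax3 or Pax7 array of either gene reached the control range. Both genes were also lower in Pax7 than in Pax3 arrays (-0.20 and -0.40, limma adjusted p = 0.0163 and 0.000199).

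Btg1, the closest relative of Btg2, rose where Btg2 fell. Btg1 averaged 10.99 ± 0.0234 in Pax3, 10.88 ± 0.0268 in Pax7 and 10.32 ± 0.118 in control arrays (SD, n = 3 each), with log2 fold changes of 0.67 and 0.56 (limma adjusted p = 3.03e-06 and 1.01e-05). Tob1, a more distant antiproliferative family member, fell by 0.59 and 0.53 on the log2 scale. For Eda2r, the ligand gene Eda moved against the receptor: it averaged 8.00 ± 0.112 in Pax3, 8.22 ± 0.0428 in Pax7 and 6.89 ± 0.0646 in control arrays, 2.15-fold and 2.51-fold higher (limma adjusted p = 8e-08 and 1.21e-08). The array does not separate the ectodysplasin isoform that binds Eda2r from the one that binds the related receptor Edar. Edar itself did not pass (0.01 and 0.15). The receptor gene Relt fell by 1.02 and 1.10. Over the 19 measured relatives and partners, 3 rose and 7 fell in Pax3 arrays, and 7 rose and 6 fell in Pax7 arrays, where 39.6% and 43.2% of all genes passed. Their medians were -0.05 and 0.02, beside 0.02 and 0.03 over all genes. Phlda1, Phlda2 and Edaradd were higher in Pax7 than in Pax3 arrays (0.28, 0.42 and 0.40, limma adjusted p at most 0.0226).

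**Figure D3:**
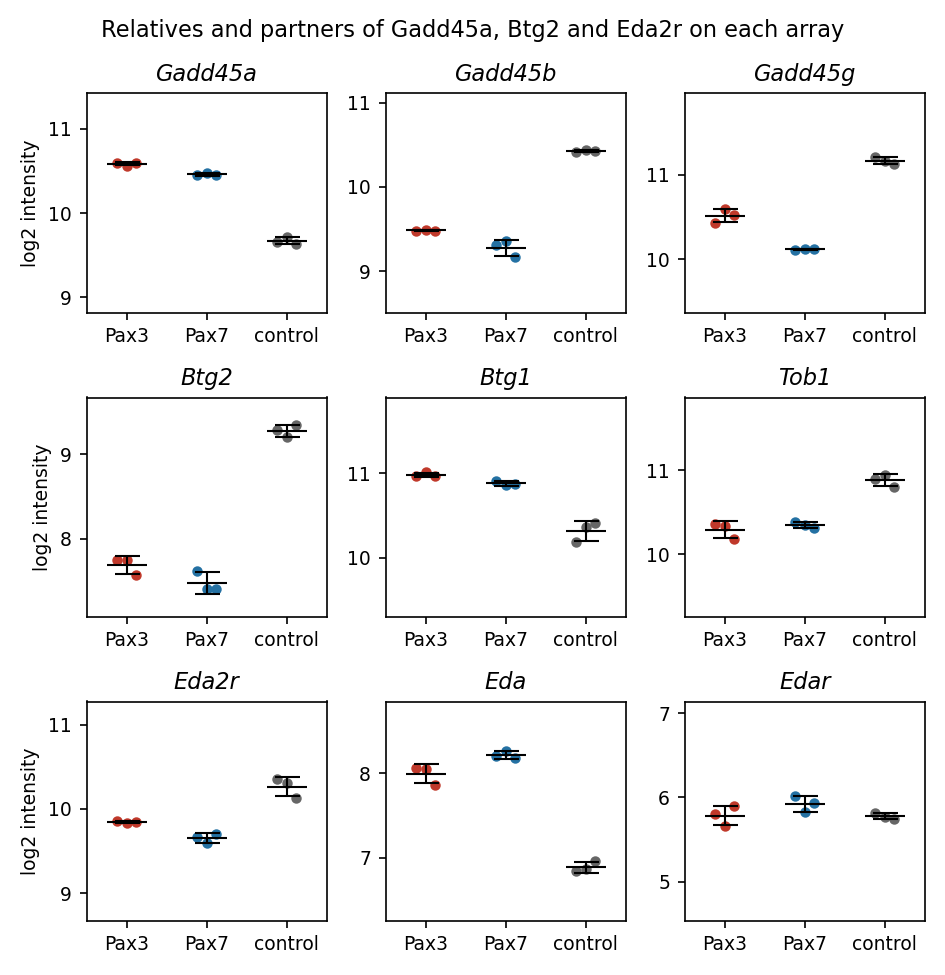
Log2 intensity on each array (points) with group means and SD (bars) for Gadd45a and its paralogues, Btg2 with Btg1 and Tob1, and Eda2r with the ligand gene Eda and the receptor Edar, in Pax3, Pax7 and control arrays. Gadd45a, Btg1 and Eda are higher and Gadd45b, Gadd45g, Btg2, Tob1 and Eda2r lower in both overexpressing groups than in control.

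Genes listed as regulators of p53 changed in both directions. Of 25 measured, 6 rose and 9 fell in Pax3 arrays and 5 rose and 12 fell in Pax7 arrays, where 39.6% and 43.2% of all genes passed. Their median log2 fold changes were -0.06 and -0.15, beside 0.02 and 0.03 over all genes. Cdkn2a rose 2.68-fold in Pax3 and 2.99-fold in Pax7 arrays (log2 fold change 1.42 and 1.58, limma adjusted p = 4.33e-10 and 1.2e-10). This gene encodes Arf, which blocks Mdm2, and the cyclin-dependent kinase inhibitor Ink4a, and the probe set was not shown to separate them. Chek2, a checkpoint kinase that phosphorylates p53, was 2.49-fold and 2.21-fold higher. Usp7, which removes ubiquitin from Mdm2 and p53, was 2.27-fold and 2.37-fold lower. Bcl6, a repressor of p53 in lymphocytes, was 3.25-fold and 4.24-fold lower (limma adjusted p = 4.39e-10 and 6.22e-11). Between the factors, the p53 inhibitor Mdm4 was 1.61-fold and the p53 kinase Hipk2 1.55-fold higher in Pax7 than in Pax3 arrays (limma adjusted p = 2.74e-06 and 1.21e-05). Prkdc, a kinase of DNA break repair, fell by 0.35 on the log2 scale in that comparison.

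Other p53 targets were split as well. Of 41 measured, 14 rose and 11 fell in Pax3 arrays, 12 rose and 12 fell in Pax7 arrays, and 8 rose and 6 fell between Pax7 and Pax3 arrays. The shares of all genes that passed in these comparisons were 39.6%, 43.2% and 16.9%. The medians of the 41 log2 fold changes were 0.07, 0.03 and -0.02, beside 0.02, 0.03 and 0.01 over all genes. Cdkn1a, the gene of the cell cycle inhibitor p21, and Bax were not analysed here. Trp53i11 rose 4.63-fold in Pax3 and 5.51-fold in Pax7 arrays (limma adjusted p = 7.33e-10 and 1.94e-10). The stress kinase gene Plk3 rose 1.93-fold and 2.59-fold. The death receptor gene Fas fell by 1.10 and 0.90 on the log2 scale, and Ddit4, an inhibitor of the growth kinase mTOR, by 0.87 and 1.01.

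Of these 41 targets, Perp had the largest difference between the factors. Its product is a membrane protein of desmosomes with a role in p53-dependent apoptosis. It averaged 10.46 ± 0.0658 in Pax7, 8.34 ± 0.0571 in Pax3 and 7.73 ± 0.125 in control arrays (SD, n = 3 each), and was 4.35-fold higher in Pax7 than in Pax3 arrays (limma adjusted p = 8.46e-09). Of 7 epithelial markers, 2 rose between Pax7 and Pax3 arrays, Krt18 and Epcam, where 8.33% of all genes were called higher, and 5 did not pass. Against control 3 of 7 rose and 4 did not pass in each comparison. Of all genes, 19.8% were called higher in Pax3 and 21.6% in Pax7 arrays. The log2 of the summed intensities of the 7 markers was 9.72 to 9.90 in Pax7, 9.01 to 9.12 in Pax3 and 8.83 to 8.94 in control arrays. Such a sum rests mostly on the highest genes of a list. Krt18 averaged 8.87 in Pax7, 7.08 in Pax3 and 6.42 in control arrays. The defining markers Epcam and Cdh1 averaged 5.73 and 5.38 in Pax7, 5.20 and 5.35 in Pax3 and 5.02 and 5.35 in control arrays. The part of epithelial cells in the Perp result was not tested. Rprm rose by 0.49 and Sesn2 fell by 0.31 in Pax7 relative to Pax3 arrays.

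Genes of the mitochondrial death pathway changed in both directions. Of 19 measured, 3 rose and 4 fell in Pax3 arrays and 6 rose and 4 fell in Pax7 arrays, where 39.6% and 43.2% of all genes passed. Their median log2 fold changes were 0.05 and 0.10, beside 0.02 and 0.03 over all genes, and their median absolute changes 0.11 and 0.20, beside 0.11 and 0.13. The death effector Bok rose by 0.46 and 0.70, and the survival gene Bcl2l1 by 0.37 and 0.45. Bcl2, another survival gene, was at 0.04 in Pax3 arrays, where it did not pass, and rose by 0.68 in Pax7 arrays and by 0.64 in Pax7 relative to Pax3 arrays (limma adjusted p = 0.000361). Pmaip1, the gene of the p53 target Noxa, fell by 0.44 and 0.39, and cytochrome c gene Cycs by 0.47 and 0.74. Cycs read low, averaging 5.84 in Pax3, 5.57 in Pax7 (SD 0.27) and 6.31 in control arrays, below the median gene mean of 6.88.

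Cell cycle genes that active p53 is known to lower changed by less than 0.5 log2 units. Of 20 measured, 3 rose and 5 fell in Pax3 arrays, 2 rose and 8 fell in Pax7 arrays, and 1 rose between the factors, where 39.6%, 43.2% and 16.9% of all genes passed. Their log2 fold changes against control ran from -0.45 to 0.28, with medians of -0.01 and -0.09, beside 0.02 and 0.03 over all genes. The proliferation marker Mki67 fell by 0.33 and 0.45 and Cdc20, an activator of mitotic exit, by 0.26 and 0.32. The mitotic kinase Bub1 rose by 0.28 in Pax3 arrays, and in Pax7 arrays the phosphatase gene Cdc25c fell by 0.31 and the cyclin gene Ccna2 by 0.24. The cell cycle factor Mybl2 fell by 0.30 in Pax3 arrays (limma adjusted p = 0.000638), was at 0.07 in Pax7 arrays, where it did not pass (limma adjusted p = 0.29), and was 0.38 higher in Pax7 than in Pax3 arrays. A few genes stand in more than 1 of these lists, among them Pmaip1, Apaf1, Btg1, Birc5 and Chek1.

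**Figure D4:**
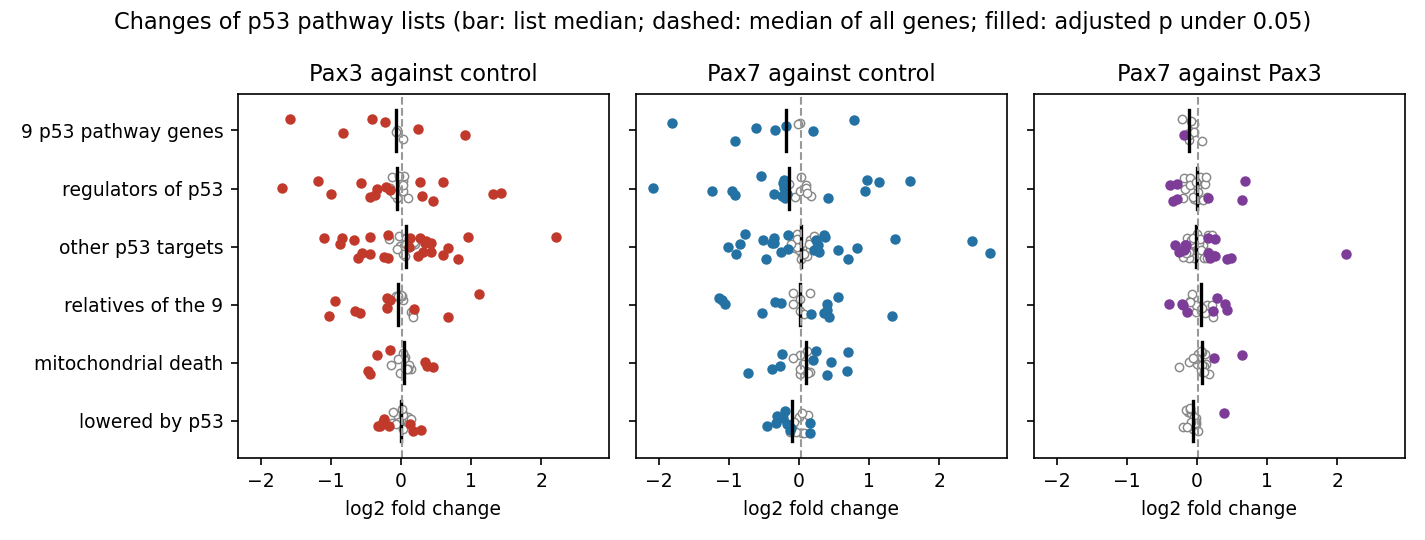
Log2 fold changes of the 9 genes and of the 5 related lists in each comparison; each point is a gene, filled where the adjusted p was under 0.05, the bar is the list median and the dashed line the median of all genes. The list medians stay within 0.2 log2 units of 0, with members on both sides, and Perp at 2.12 stands apart between Pax7 and Pax3.

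Most markers of other cell types did not pass. Over all genes, 39.6% passed in Pax3 and 43.2% in Pax7 arrays (19.8% and 21.6% higher). Of the macrophage and leukocyte list, Cd68 and Laptm5 rose in both comparisons with control (2 of 8), and Cd14 fell by 0.20 on the log2 scale in Pax7 arrays (limma adjusted p = 0.00548). The log2 of the list's summed intensities was 9.94 to 10.10 in Pax3, 10.12 to 10.19 in Pax7 and 8.80 to 8.91 in control arrays. Cd68 and Laptm5, the highest genes of the list, weigh most in that sum. The defining leukocyte gene Ptprc stayed at 4.74, 4.73 and 4.70, below 5.2, the 25th percentile of gene means. Fibroblast markers had 1 and 2 rises of 8, endothelial markers 1 and 2 of 7, adipocyte markers 1 and 3 of 6 (Pparg averaging 9.89, 10.09 and 8.76), and Schwann cell markers 0 of 3. Of the 8 myoblast markers, 2 rose and 5 fell in Pax3 arrays, where 39.6% of all genes passed. In Pax7 arrays 3 rose and 5 fell, where 43.2% of all genes passed. Overexpressed Pax7 itself is among the 8. Myf5 rose 3.92-fold and 4.05-fold and Vcam1 by 0.88 and 0.62 on the log2 scale. Among the markers that fell, Des was 1.43-fold lower in Pax3 and 2.52-fold lower in Pax7 arrays, and Ncam1 1.45-fold and 2.19-fold lower. Cdh15 was 1.66-fold and 1.57-fold lower and Itga7 1.38-fold and 1.62-fold lower. Myod1 was 1.35-fold lower in Pax7 arrays and did not pass in Pax3 arrays, where Pax7 fell. The part of any of these cell types in the values of the 9 genes was not tested.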

How the data were processed

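Biotin-labelled total RNA of myoblasts was measured on Affymetrix arrays, per the labels' protocols. The authors deposited log2 intensities made with RMA in R 2.10.0, per the submitters' processing notes. The genome build is not given in the sources used here. There were 25668 probe sets on 9 arrays (values 1.93 to 13.2), and 20777 carried 1 symbol, 232 several and 4659 none in the platform annotation. Where a gene had several, the one with the highest mean was used (564 of 19661 genes).

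All 9 arrays entered 1 linear model with group means in limma 3.58.1 (R 4.3.3), with moderated tests and Benjamini-Hochberg adjustment over all genes (threshold 0.05). Errors of fold changes are moderated standard errors. The number of arrays limits the precision. The members and lists were chosen with earlier results of these data known. Of each list, up to 4 called genes with the largest change per comparison are named, or 2 with the smallest p where none passed. Tob1, Edar and the marker genes printed beyond those rules were named after their values were seen. A planned search for genes like Trp53 was run on Btg2 instead, since Trp53 was not analysed. The fit was tested on simulated data. Alternatives were a replicate block, an intensity trend, a filter on low genes, 6 arrays only, median centring, averaged probe sets and leaving out each array. The replicate numbers were shared by titles only: same-numbered deviations correlated at -0.03 to 0.22.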

Additional observations from a re-analysis of the deposited data

How the results depend on the processing

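Against control, the number of the 9 genes called changed little: 6 for Pax3 under every alternative that left out no single array and 5 to 6 when single arrays were left out, and 7 for Pax7 under those alternatives and 6 to 7 when single arrays were left out. Over all tested genes, Pax3 against control had 7948 calls with an intensity trend and 6528 without the lowest 50% of genes, beside 7780. Pax7 against control had 8662 and 6846, beside 8485. For Pax7 against Pax3, 1 of the 9 was called, where 16.9% of all genes passed. Of the alternatives for that comparison, only the replicate block has its count over all genes given here. The count was 0 with the replicate number as a block and 3 with an intensity trend (Eda2r, Mdm2 and Gadd45a). It was 3 without the lowest 50% of genes (Eda2r, Btg2 and Gadd45a) and 0 with arrays centred on their medians. When single arrays were left out it was 0 to 1 (Eda2r or Btg2). The filter tested fewer genes; for the others the cause was not tested. The replicate block changed no other call of the 9 genes. Over all genes it gave 7902, 8707 and 3328 calls in place of 7780, 8485 and 3316 for Pax3 against control, Pax7 against control and Pax7 against Pax3. Of 6 arrays per comparison, 5, 0 and 3 correlated best with the array of their own number. Over the single genes, 383 values kept their direction and side of the threshold under an alternative, 12 lost the call and 6 gained it. The remaining 1, Bbc3 in Pax7 against control, passed in neither and was -0.005 with arrays centred on their medians, in place of 0.0085. Signal over background could not be judged, since no detection values are used here.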

Other observations

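The genes most like Btg2 over the 9 arrays, by the root mean square difference of profiles centred on their own means, were Armcx6 (0.0834 log2 units), Ccdc134 (0.0844), Rnf122 (0.0849), Parn (0.0869) and Mbnl3 (0.0922), beside a median of 0.825 over all genes. Btg2 was taken for this after its values were seen. Parn encodes a ribonuclease that shortens mRNA tails. It averaged 8.52 ± 0.0716 in Pax3, 8.41 ± 0.111 in Pax7 and 10.24 ± 0.0847 in control arrays (SD, n = 3 each). Mbnl3, a muscleblind splicing regulator, averaged 7.15 ± 0.103 in Pax3, 6.82 ± 0.0354 in Pax7 and 8.56 ± 0.051 in control arrays.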
